A study of Homo sapiens with 10 samples.

Results

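Interleukin 32 (IL32) and 9 other cytokine and chemokine genes of epithelial tumour cells were followed in HCT116 cells, a human colorectal carcinoma line, with and without CD276. The genes were IL32, IL18, CXCL1, CXCL2, CXCL3, CXCL8, CCL20, LIF, MIF and IL6, chosen by symbol from the 58050 gene identifiers of the deposited table of TPM values, and all 10 were found. The TPM of these same libraries, and the difference between the groups, were already known when the genes were listed, so their values are a description. No p-value is printed for them, and where they passed a threshold, this is given beside the share of all genes that did and nothing is read from it.

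The samples were 5 biological replicates of HCT116-WT cells and 5 of HCT116-CD276KO cells, grown in flasks without macrophages and with no added cytokine named in the labels, each sequenced as 1 polyA RNA library. HCT116-CD276KO cells were made by electroporation of Cas9 protein with a guide against CD276, and all of them descend from the same single cell clone, so that the groups set 1 clone against its parental line. The labels name a scrambled guide as the control of the transfections, without saying that the HCT116-WT cells of these libraries had received it. In TPM (transcript abundance after division by length, with every library scaled to the same total), the length is accounted for, which allows levels of different genes to be set side by side. The methods of the study give an average sequencing depth over the samples and its variation. The depth of each single library is unknown and no counting error is given.

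As background, cytokines are secreted proteins through which tumour cells act on leukocytes, and most of their genes are silent until a signal such as TNF or IL-1 activates the transcription factor NF-kB. IL-32 is a cytokine of lymphocytes and epithelial cells that induces other inflammatory mediators. IL-18, a member of the IL-1 family, is held in gut epithelium as an inactive precursor that caspase-1 cleaves. CXCL1, CXCL2, CXCL3 and CXCL8 attract neutrophils through CXCR2, and CCL20 attracts lymphocytes and dendritic cells that carry CCR6. LIF and IL-6 signal through the shared receptor chain encoded by IL6ST, and MIF is a constitutively made factor that binds CD74.

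On hg38, CXCL8 (chromosome 4, 73740519 to 73743716), CXCL1 (73869393 to 73871308), CXCL3 (74036589 to 74038807) and CXCL2 (74097040 to 74099196) lie in the same cluster. IL32 lies on chromosome 16 (3065297 to 3082192), IL18 on chromosome 11 (112143253 to 112164096), CCL20 on chromosome 2 (227805739 to 227817564), IL6 on chromosome 7 (22725884 to 22732002), and LIF (30240453 to 30246759) and MIF (23894383 to 23895227) on chromosome 22. Promoter windows of RefSeq on GRCh38.p14, from 250 bases before to 50 bases after a start, were found for 8 of the 10 genes, all but IL18 and LIF. They were searched on both strands for GGNNTTTCC, a form of the letters that NF-kB is known to bind, and for GGAATTTCC, which is a case of it. GGNNTTTCC was present in 2198 of all 35116 promoter windows (6.26%). It was present in 7 of the 9 windows of these genes, those of 7 of the 8 genes. GGAATTTCC was present in 162 of all windows (0.461%) and in those of 4 of the 8 genes, CXCL1, CXCL2, CXCL3 and CXCL8.

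The matches of the letters are shown in stretches of 30 bases on the strand of each gene, with the matching letters in capitals, because the stretches show how alike the chemokine promoters are and what IL32 holds in their place. They are chr16:3065294-3065323 (+) for IL32, chr4:73869304-73869333 (+) for CXCL1, chr4:74099254-74099283 (-) for CXCL2, chr4:74038749-74038778 (-) for CXCL3, chr4:73740467-73740496 (+) for CXCL8, chr2:227813752-227813781 (+) for CCL20 and chr7:22727117-22727146 (+) for IL6.
IL32: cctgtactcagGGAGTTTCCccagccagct
CXCL1: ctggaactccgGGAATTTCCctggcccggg
CXCL2: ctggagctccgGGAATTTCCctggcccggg
CXCL3: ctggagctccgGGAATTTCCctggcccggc
CXCL8: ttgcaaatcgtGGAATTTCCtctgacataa
CCL20: ttgatcaatggGGAAAACCCcatgtggcaa
IL6: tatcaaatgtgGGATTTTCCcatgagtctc
The match in CCL20 is on the other strand. CXCL1, CXCL2 and CXCL3 hold another match of GGNNTTTCC nearer to the RefSeq start, at chr4:73869329-73869358 (+), chr4:74099230-74099259 (-) and chr4:74038724-74038753 (-).
CXCL1 second: ccgggggctccGGGCTTTCCagccccaacc
CXCL2 second: cccgggactccGGGCTTTCCagccccaacc
CXCL3 second: ccggccgctccGGGCTTTCCagtctcaacc
Both IL32 matches are in the window of the first of 2 starts that RefSeq gives for the gene, and neither the window of the second start nor that of MIF held one.

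The 250 bases before the first RefSeq start of IL32 (chr16:3065153-3065402, plus strand) are given whole with both matches in capitals. IL32 is the gene with the largest difference of the 10. The gene spans given above come from another annotation, GENCODE. There IL32 starts at 3065297, inside this stretch and before both matches. The windows of CCL20 and IL6 also lie inside the spans of these genes.
IL32 upstream: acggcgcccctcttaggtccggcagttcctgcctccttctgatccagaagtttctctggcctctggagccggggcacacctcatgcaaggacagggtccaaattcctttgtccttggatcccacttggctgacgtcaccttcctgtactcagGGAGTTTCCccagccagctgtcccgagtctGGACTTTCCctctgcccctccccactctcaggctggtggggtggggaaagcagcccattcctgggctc
A match is a stretch of letters and was not measured as a binding site.

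Some facts of the libraries bear on single values. CD276 itself stood at 45.3 ± 6.17 TPM (SD, n = 5) in HCT116-WT and at 5.46 ± 1.21 TPM (SD, n = 5) in HCT116-CD276KO libraries. HCT116-WT replicate 3 and HCT116-CD276KO replicate 2 stood apart in how their values followed the GC content of transcripts. For each gene the deviation from the mean of all 10 libraries was taken, which includes the difference between the groups. These deviations correlated over genes with GC content at a Spearman rho of 0.607 in HCT116-WT replicate 3 and 0.484 in HCT116-CD276KO replicate 2. In the other 8 libraries rho was -0.343 to 0.0229. HCT116-CD276KO replicates 2 and 3 had the lowest correlations of the same deviations with transcript length, -0.517 and -0.489, against -0.0942 to 0.425 in the other 8. The epithelial markers EPCAM, CDH1, KRT8, KRT18 and KRT19 were abundant, with a sum of 4173 to 4942 TPM in HCT116-WT and 3306 to 3773 TPM in HCT116-CD276KO libraries, and log2 fold changes from -1.07 in CDH1 to -0.29 in KRT19.

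Of the 10 cytokines, 4 reached a mean of 1 TPM over the libraries (MIF, IL18, LIF and IL32) and entered the fit with 13581 genes tested, and IL32 did so only through the HCT116-WT libraries. The other 6 were low in both groups. In HCT116-WT cells the order of the mean levels was MIF, IL18, LIF, IL32, CXCL3, CXCL1, CXCL8, CXCL2, CCL20 and IL6. The ranges of IL18, LIF, IL32, CXCL3 and CCL20 did not touch those of their neighbours above. Those of CXCL3, CXCL1, CXCL8 and CXCL2 overlapped from one to the next, as did those of CCL20 and IL6. In HCT116-CD276KO cells the order was MIF, IL18, LIF, CXCL8, CXCL3, CXCL1, CXCL2, IL32, CCL20 and IL6, so that IL32 went from the fourth place to the eighth. Its range overlapped there with those of both neighbours, CXCL2 and CCL20.

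**Figure D1:**
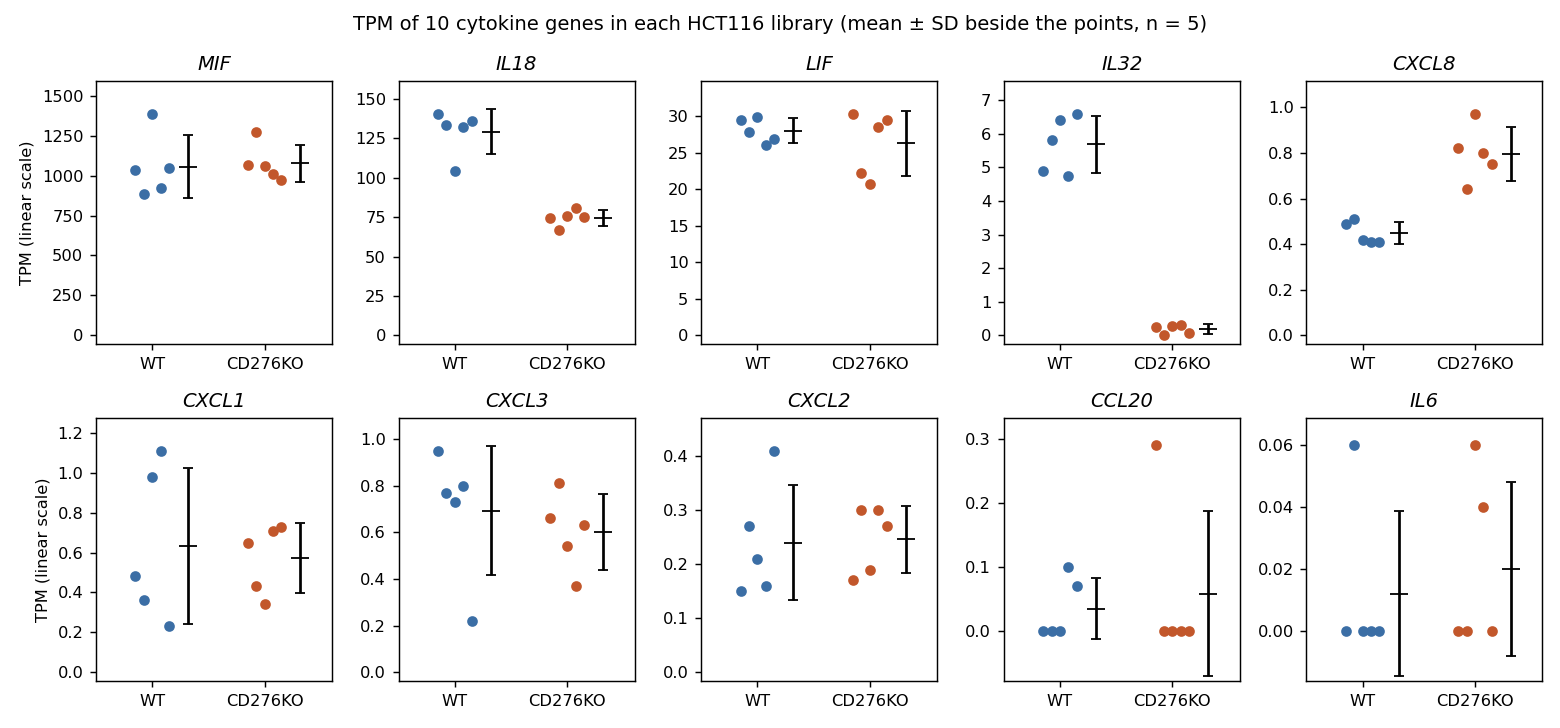
TPM (vertical axis, linear scale, different in each panel) of the 10 cytokine genes in each HCT116-WT (blue) and HCT116-CD276KO (orange) library, in the order of replicates, with the mean ± SD (n = 5) in black. IL32 and IL18 lie lower and CXCL8 higher in all 5 HCT116-CD276KO libraries, and the groups overlap in the other 7 genes. Of 30818 genes above 0 TPM in at least 1 library, 3.38% were lower without overlap and 0.818% higher. Nothing is read from the count.

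IL32 (ENSG00000008517) was nearly lost in the HCT116-CD276KO cells. The HCT116-WT samples 1 to 5 gave 4.89, 5.82, 6.41, 4.73 and 6.58 TPM of it. The HCT116-CD276KO samples 1 to 5 gave 0.24, 0, 0.29, 0.32 and 0.08 TPM. The groups were far apart, and even the highest HCT116-CD276KO value, that of replicate 4, was small beside the lowest HCT116-WT value. On average IL32 was at 5.69 ± 0.85 TPM against 0.186 ± 0.139 TPM (SD, n = 5 each), which leaves 3.27%. Such a difference in bulk RNA can come from fewer cells with the transcript or from less of it per cell, which cannot be told apart here. The log2 fold change on log2(TPM + 1) was -2.49 (standard error 0.13). The size depends on the pseudocount, since the values of HCT116-CD276KO cells lie near 0: it was -4.51 with a pseudocount of 0.1, and the log2 ratio of the means was -4.93. It was the one member past both thresholds of the fit (adjusted p-value below 0.05, at least 2-fold), as were 0.486% of the genes tested in either direction and 0.464% with lower values in HCT116-CD276KO cells. Its groups did not overlap, as for 6.19% of the genes tested and 3.38% of the 30818 genes above 0 TPM in any library, counting lower values in HCT116-CD276KO cells. Since IL32 was picked with this contrast known, nothing is read from these shares.

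IL32 is known above all from T and NK cells, whose markers were at or near 0 in these libraries. The 10 leukocyte markers PTPRC, CD2, CD3D, CD3E, NKG7, GNLY, CD14, ITGAM, FCGR3A and MS4A1 summed to 0.19 to 0.36 TPM in HCT116-WT and 0.14 to 0.51 TPM in HCT116-CD276KO libraries, and CD3D, FCGR3A and MS4A1 were listed at 0 in all 10. Endothelial markers (PECAM1, VWF, CDH5 and KDR) summed to at most 0.65 TPM. Of the fibroblast markers COL1A1, COL1A2, DCN, LUM, PDGFRB and THY1, COL1A1 alone was above 1 TPM, at 7.31 and 5.57 TPM on average, and LUM was listed at 0 in all 10 libraries. The part of the lower epithelial markers of HCT116-CD276KO cells in the IL32 difference was not tested.

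Of 28 other tested genes that start within 500 kb of it, 1 was lower and 1 higher at an adjusted p-value under 0.05, against 4.09% of all tested genes lower and 0.781% higher, and their median log2 fold change was -0.06. Named after their values were seen, these are PRSS22, a serine protease gene (4.08 to 1.33 TPM, log2 fold change -1.12, adjusted p-value 0.000398 from limma), and HCFC1R1 (57.8 to 75.6 TPM, log2 fold change 0.39, adjusted p-value 0.0219 from limma).

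Among the genes whose profile over the 10 libraries was most like that of IL32 were S100A14 (Pearson r = 0.995 of log2(TPM + 1)), SYK (0.992), PODXL2 (0.991) and MAL2 (0.990). The libraries fall into 2 groups and the r values mainly state that these 4 genes and IL32 share the step between them. S100A14, a calcium-binding protein of epithelia, stood at 163 ± 11.4 and 44.1 ± 1.67 TPM (SD, n = 5). SYK, a kinase of immune receptors that epithelial cells also express, stood at 3.15 and 0.146 TPM on average, PODXL2, a sialomucin, at 2.66 and 0.014 TPM, and MAL2, a protein of apical transport, at 204 and 6.97 TPM. The groups did not overlap in any of the 4 genes, with lower values in HCT116-CD276KO cells, as for 6.19% of the genes tested. The 4 genes were chosen by r over both groups, so nothing is read from this. Like IL32, SYK and PODXL2 reached the filter of the fit only through the HCT116-WT libraries.

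**Figure D2:**
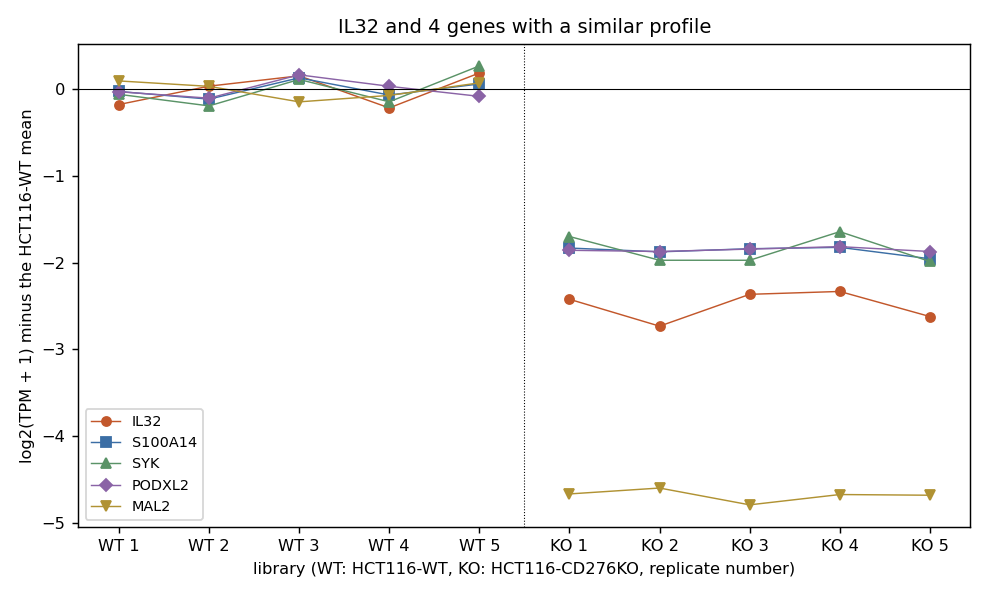
log2(TPM + 1) minus the HCT116-WT mean (vertical axis) of IL32 and 4 genes with a high Pearson r to it, in the 5 HCT116-WT and the 5 HCT116-CD276KO libraries (horizontal axis). All of them step down between the groups, with log2 fold changes from -4.68 in MAL2 to -1.85 in PODXL2 and SYK, and -2.49 in IL32.

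IL18 (ENSG00000150782) stayed abundant but lost part of its level. From sample 1 to sample 5, HCT116-WT cells had 140.28, 133.15, 104.11, 132.13 and 135.77 TPM of IL18. HCT116-CD276KO cells had 74.37, 66.6, 75.9, 80.53 and 75.31 TPM. All HCT116-CD276KO values lay below all HCT116-WT values, as for 6.19% of the genes tested, and nothing is read from this. The lowest value of each group was that of the library with the highest correlation with GC content in its group. On average the level went from 129 ± 14.3 TPM to 74.5 ± 5.04 TPM (SD, n = 5), or 57.7% of that in HCT116-WT cells. The log2 fold change of -0.78 (standard error 0.09) was short of 2-fold. IL18 and IL32 were the 2 members whose adjusted p-value lay below 0.05, as did that of 4.87% of the genes tested, and nothing is read from this count. Without HCT116-WT replicate 3 it was -0.85 (standard error 0.06), and with the length and GC trends removed -0.78 (standard error 0.06). IL18 exceeded 90.7% of the tested genes in level in HCT116-WT and 84.3% in HCT116-CD276KO cells.

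MIF (ENSG00000240972) was by far the highest of the 10. The 5 HCT116-WT libraries had, in order of replicate, 1034.52, 886.48, 1384.05, 923.74 and 1046.88 TPM of MIF. The 5 HCT116-CD276KO libraries had 1067.66, 1270.3, 1058.7, 1008.75 and 974.09 TPM. The groups overlapped, and the highest values were those of HCT116-WT replicate 3 and HCT116-CD276KO replicate 2, the libraries with the strongest trend with GC content. The MIF transcript has 65.9% GC, the highest share of the 10 cytokines. Group means of 1055 ± 197 and 1076 ± 115 TPM (SD, n = 5) gave a log2 fold change of 0.04 (standard error 0.11). It moved both ways with the scaling. After median-of-ratios scaling it was 0.14 (standard error 0.13). Its sign changed to -0.03 after quantile normalization and -0.01 (standard error 0.06) with the length and GC trends removed. MIF held 86.2 ± 2.61% of the summed TPM of the 10 cytokines in HCT116-WT and 91.2 ± 1.34% (SD, n = 5) in HCT116-CD276KO libraries. In the newer annotation used here, 61.2% of the 50-base windows of the MIF transcript are also part of the overlapping gene ENSG00000251357 on the same strand, which stood at 12.5 to 29.7 and 14.6 to 51.4 TPM in the 2 groups, so the split of reads between them is uncertain.

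LIF (ENSG00000128342), a member of the IL-6 family, had values of 29.47, 27.78, 29.91, 26 and 26.89 TPM over HCT116-WT replicates 1 to 5. Over HCT116-CD276KO replicates 1 to 5 these were 30.26, 22.26, 20.77, 28.51 and 29.51 TPM. The groups overlapped, and the values below all others were those of HCT116-CD276KO replicates 2 and 3, the libraries with the lowest correlation with transcript length. LIF has the longest transcript of the 10 genes, with 3871 bases. Group means of 28.0 ± 1.67 and 26.3 ± 4.41 TPM (SD, n = 5) gave a log2 fold change of -0.10 (standard error 0.11) that was 0.01 after quantile normalization and 0.03 (standard error 0.07) with the length and GC trends removed. Its relative IL6, another ligand that signals through IL6ST, was listed at 0 in 7 of the 10 libraries and reached 0.06 TPM at most.

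The neutrophil attractants of the chromosome 4 cluster were close to silent in both groups. CXCL8 (ENSG00000169429) had 0.49, 0.51, 0.42, 0.41 and 0.41 TPM in the HCT116-WT libraries, by replicate number. The HCT116-CD276KO libraries had 0.82, 0.64, 0.97, 0.8 and 0.75 TPM. All HCT116-CD276KO values lay above all HCT116-WT values, as for 0.818% of the 30818 genes above 0 TPM in at least 1 library. Group means of 0.448 ± 0.0482 and 0.796 ± 0.12 TPM (SD, n = 5) gave a difference of 0.31 on the log2(TPM + 1) scale and a log2 ratio of the means of 0.83. At under 1 TPM the gene was below the filter of the fit, and the number of reads behind these values is unknown.

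CXCL1 stood between 0.23 and 1.11 TPM in HCT116-WT and between 0.34 and 0.73 TPM in HCT116-CD276KO libraries. CXCL3 stood between 0.22 and 0.95 TPM and between 0.37 and 0.81 TPM, and CXCL2 between 0.15 and 0.41 TPM and between 0.17 and 0.3 TPM. In all 3 genes the ranges of the groups overlapped, and the widest spread was that of the HCT116-WT libraries. The transcripts are alike enough to share reads: 5.33% of the 50-base windows of CXCL1, 10.1% of those of CXCL2 and 5.26% of those of CXCL3 also occur in another of the 3. Whether such reads were split, and by what rule, is not known here. The summed level of the 3 genes was 1.57 ± 0.476 TPM in HCT116-WT and 1.42 ± 0.216 TPM (SD, n = 5) in HCT116-CD276KO libraries. With CXCL8 added it was 2.01 ± 0.472 and 2.22 ± 0.13 TPM (SD, n = 5), and the ranges overlapped. The cluster genes CXCL5, CXCL6, PPBP, PF4 and PF4V1 were listed at 0 in every library. CCL20 was listed at 0 in 7 of the 10 libraries and reached 0.1 TPM in HCT116-WT replicate 4 and 0.29 TPM in HCT116-CD276KO replicate 1.

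**Figure D3:**
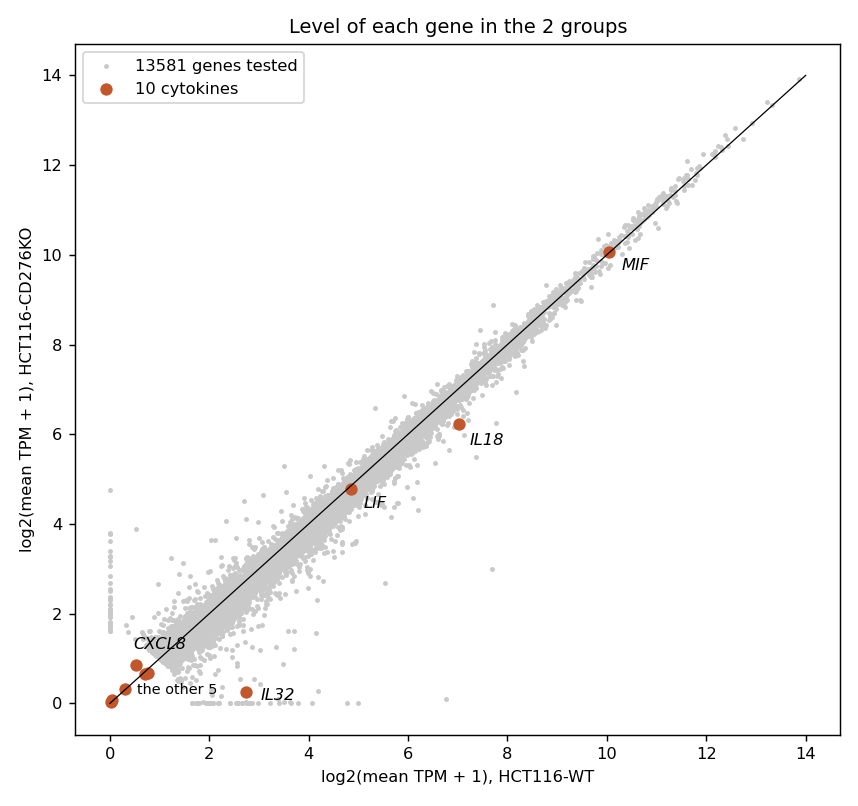
Mean level of each tested gene (grey) and of the 10 cytokines (orange) in HCT116-WT (horizontal axis) and HCT116-CD276KO libraries (vertical axis), as log2(mean TPM + 1), with the line of equal levels. MIF and LIF lie on the line, IL18 below it and IL32 near the floor of the HCT116-CD276KO axis, while CXCL8 and the other 5 genes lie in the lowest corner.

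The genes through which these cytokines are sensed, matured and controlled were compared in the same fit, from 5 lists of 97 genes in all, of which 53 were tested. Over all 13581 genes, 556 were lower and 106 higher at an adjusted p-value under 0.05 from limma, and the median log2 fold change was -0.09. Before adjustment, 2977 of the 13581 genes had a p-value under 0.05. The split moved with the scaling: 16.0% of the called genes were higher on the values as deposited, 32.9% after median-of-ratios scaling, 39.7% after quantile normalization and 46.2% with the length and GC trends removed. In the lists, 3 of the 53 tested genes were called, 2 lower and 1 higher, against 4.87% of all genes.

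Among 15 receptors and binding partners, 7 were tested and limma called 0 at an adjusted p-value under 0.05, with 2 at an unadjusted p-value under 0.05 and a median log2 fold change of -0.14. The receptors of the neutrophil attractants and of CCL20 were at most 0.15 TPM in any library (CXCR1, CXCR2, CCR6), and IL18RAP, the signalling chain of the IL-18 receptor, at most 0.09 TPM. IL18R1 was at 0.83 and 0.752 TPM on average and CD74, the MIF receptor, at 0.178 and 0.244 TPM. The chains of the LIF receptor were present, with LIFR at 7.98 and 7.14 TPM and IL6ST at 15.7 and 15.6 TPM on average. The highest of the list was CD44, a hyaluronan receptor that also pairs with CD74, at 436 ± 34.1 and 343 ± 56.8 TPM (SD, n = 5). Its log2 fold change was -0.36, and limma gave it an adjusted p-value of 0.0906 that lay between 0.0295 and 0.206 over the alternatives. DDT, the paralog of MIF, stood at 205 ± 29.1 and 225 ± 24.8 TPM (SD, n = 5; log2 fold change 0.14, adjusted p-value 0.426 from limma).

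Of 13 genes of IL-18 maturation and release, 6 were tested and limma called 0 at an adjusted p-value under 0.05, with 1 at an unadjusted p-value under 0.05 and a median log2 fold change of -0.20. CASP1, which encodes the enzyme that cleaves the precursor, reached 0.05 TPM at most, and the inflammasome adaptor PYCARD 0.15 TPM at most, in the same libraries in which IL18 lay above 66 TPM. The inflammasome sensors NLRP3, NLRP6 and NLRC4 stayed at or below 0.05 TPM and AIM2 was listed at 0 in every library, while NLRP1, another sensor, was present at 1.24 to 1.68 TPM in HCT116-WT and 0.56 to 1.62 TPM in HCT116-CD276KO libraries. GSDMD, which forms the pore for release, stood at 38.6 ± 4.65 and 37.5 ± 4.95 TPM, and CASP8 at 26.1 ± 2.62 and 23.3 ± 1.21 TPM (SD, n = 5), with adjusted p-values of 0.831 and 0.280 from limma. CASP4, named after its values were seen, stood at 14.88 to 18.47 TPM in HCT116-WT and 10.27 to 14.24 TPM in HCT116-CD276KO libraries, and its adjusted p-value of 0.053 from limma was just over the threshold.

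Of 22 genes of the NF-kB pathway, 21 were tested and limma called 0 at an adjusted p-value under 0.05, while 3 were below 0.05 before adjustment. Their median log2 fold change was -0.09, like that of all genes. RELA, the main activating subunit, stood at 62.2 ± 4.67 and 50.6 ± 8.01 TPM, and NFKB2 at 53.0 ± 6.83 and 45.7 ± 4.47 TPM (SD, n = 5), with log2 fold changes of -0.31 and -0.21 and adjusted p-values of 0.128 and 0.230 from limma. BIRC3, an NF-kB target picked for having the lowest log2 fold change of the list, stood at -0.56 at an adjusted p-value of 0.0635 from limma. It passed the threshold without HCT116-WT replicate 3 (0.0465), without HCT116-CD276KO replicate 1 (0.0253) and with the length and GC trends removed (0.0323).

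Of 9 genes that control decay and stability of cytokine mRNAs, all were tested and 1 fell, with 4 at an unadjusted p-value under 0.05 and a median log2 fold change of -0.10. The log2 fold changes of all 9 were negative, as were those of 68.1% of all genes tested. ZFP36L1, whose product binds AU-rich elements and promotes mRNA decay, had 153.28, 147.06, 159.97, 133 and 140.72 TPM in HCT116-WT samples 1 to 5. The HCT116-CD276KO samples had 88.7, 73.09, 64.34, 76.51 and 93.32 TPM. The groups did not overlap, and the log2 fold change was -0.89 (standard error 0.10, adjusted p-value 0.00029 from limma), between -0.95 and -0.78 over the alternatives. Its relatives ZFP36 and ZFP36L2 had log2 fold changes of -0.28 and -0.10, with adjusted p-values of 0.194 and 0.378 from limma. The highest of the list, HNRNPD and KHSRP, stood at 555 ± 20.2 and 522 ± 37.4 TPM and at 410 ± 19.6 and 354 ± 50.4 TPM (SD, n = 5), with adjusted p-values of 0.369 and 0.203 from limma.

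Of 38 other cytokines and chemokines, 10 were tested, 1 was called higher and 1 lower, 3 were at an unadjusted p-value under 0.05, and 11 were listed at 0 in every library, among them TNF, IL1B, CCL2 and CSF3. CXCL16, a chemokine made as a membrane protein, fell from 35.0 ± 2.38 to 26.9 ± 3.34 TPM (SD, n = 5; log2 fold change -0.37, adjusted p-value 0.0384 from limma), with no overlap between the groups. CKLF, a chemokine-like factor, rose from 29.9 ± 2.41 to 40.7 ± 5.22 TPM (SD, n = 5; log2 fold change 0.43, adjusted p-value 0.0241 from limma), and its groups met, at 33.83 TPM in HCT116-WT replicate 3 and 33.76 TPM in HCT116-CD276KO replicate 5. Both calls lie near the threshold. Each was lost in the fits without HCT116-WT replicate 1, 2, 4 or 5 and without HCT116-CD276KO replicate 2, 3 or 4, and that of CXCL16 also without HCT116-WT replicate 3, with adjusted p-values up to 0.0729 for CKLF and 0.109 for CXCL16. GDF15, a stress-induced member of the TGF-beta family, was the highest of this list at 179 ± 31.3 and 155 ± 29.5 TPM (SD, n = 5), at an adjusted p-value of 0.382 from limma. IL7, a growth factor of lymphocytes that was below the filter and is named after its values were seen, stood at 0.16 to 0.37 TPM in HCT116-WT and 0.51 to 0.81 TPM in HCT116-CD276KO libraries.

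**Figure D4:**
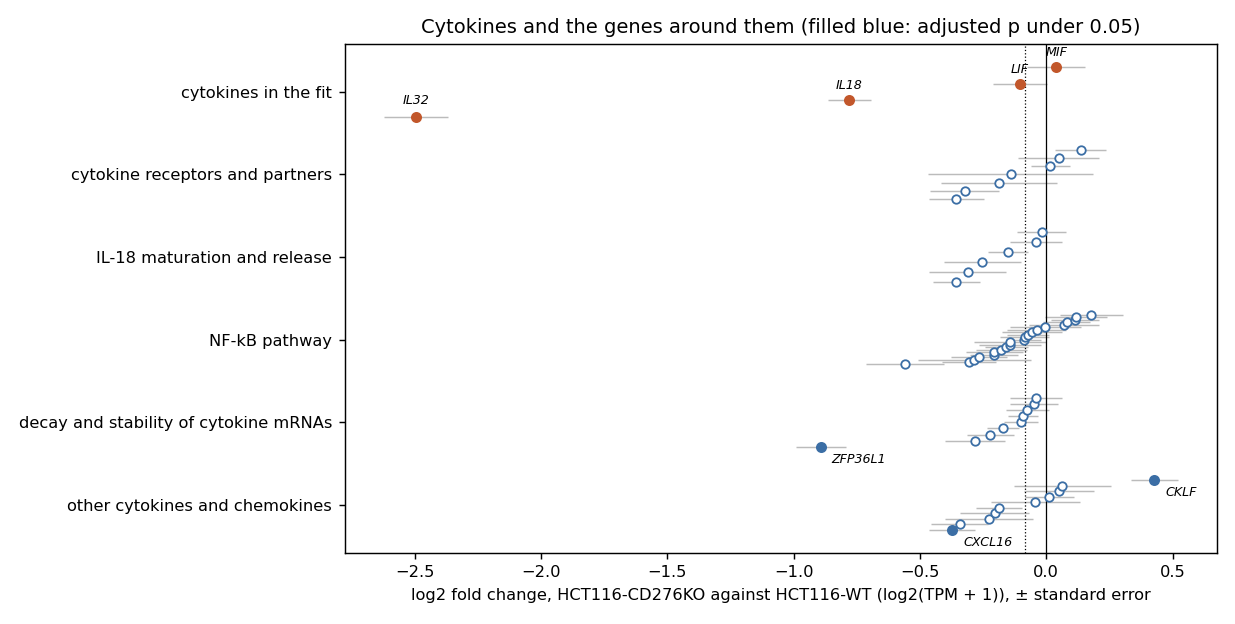
log2 fold change of HCT116-CD276KO against HCT116-WT cells on log2(TPM + 1), with its standard error (horizontal axis), for the 4 cytokines in the fit (orange) and the tested genes of each list (blue, filled where the adjusted p-value was under 0.05 from limma). The dotted line is the median of all genes tested, -0.09. ZFP36L1, CXCL16 and CKLF are the 3 filled genes, and IL32 lies further to the left than every gene of the lists.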

How the data were processed

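RNA of 5 HCT116-WT and 5 HCT116-CD276KO samples was compared, grouped by the sample titles. The labels call the samples biological replicates without saying whether each had a flask of its own, and p-values measure the spread between these samples of 1 clone and its parental line. According to the submitters' processing notes and the methods, the authors mapped reads to GRCh38 with STAR 2.5.2b and quantified Ensembl genes with RSEM 1.3.0 and featureCounts 1.5.1. The authors deposited TPM, with 2 decimals; which program gave them, and whether counting used strand, is not given in the sources used here. IL32, IL18, LIF, MIF and IL6 overlap genes on the opposite strand.

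Symbols were found for 56947 of the 58050 identifiers. Genes whose mean over the libraries reached 1 TPM were compared on log2(TPM + 1), which understates changes of low genes, with limma 3.58.1 (R 4.3.3), a variance trend and Benjamini-Hochberg adjustment over 13581 genes. The code of the comparison was run on simulated data with independent noise for each gene and no trend with length or GC content. Such data cannot show how the fit behaves under those trends, and nothing is read from that run. Lengths, GC content and positions came from GENCODE 44 on hg38, newer than the authors' annotation, and promoters from RefSeq (Python 3.11.15, pandas 2.3.3, matplotlib 3.10.9). The members, lists and alternatives were chosen with earlier results of these data known, and the motifs after the promoters had been seen. Named were the members, CD276, per list up to 3 genes with the largest change among those called and the 2 highest, and the 5 most similar to IL32, of which 1 is not reported here, as is 1 leukocyte marker. Genes of the Y chromosome, XIST and unnamed genes were left out of that search. Alternatives were a pseudocount of 0.1, other filters (all genes above 0 TPM, a mean of 5 TPM), median-of-ratios scaling, quantile normalization, removal of length and GC trends by local regression (span 0.3, for 13472 genes), the replicate number as a block, each library left out, and the ratio of mean TPM.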

Additional observations from a re-analysis of the deposited data

Results flagged for a closer look

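In 7 of 46 groups of 5 values, over the cytokines, CD276 and the named list genes, the highest or lowest value stood further from the others than 0.71 of the range of the group, a limit that chance passes in about 1 of 20 groups. HCT116-WT replicate 3 gave 5 of the 7. There IL18 stood at 104.11 TPM against 132.13 to 140.28 TPM in the other 4 libraries, and CASP8 at 21.54 TPM against 26.69 to 28.19 TPM. DDT stood at 255.99 TPM against 184.45 to 200.6 TPM, GSDMD at 46.84 TPM against 35.71 to 37.31 TPM, and NFKB2 at 64.85 TPM against 48.51 to 52.62 TPM. The transcripts of the low genes, IL18 and CASP8, have 42.2% and 41.9% GC, and those of the high genes, DDT, GSDMD and NFKB2, have 57.9%, 64% and 61.2% GC. On the log2 scale with the length and GC trends removed, the gap was 0.612 of the range for IL18, 0.686 for DDT, 0.438 for GSDMD and 0.515 for NFKB2, all under the limit, and 0.866 for CASP8, over it.

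CCL20 in HCT116-CD276KO replicate 1 (0.29 TPM) and IL6 in HCT116-WT replicate 2 (0.06 TPM) stood apart in this way because the other 4 libraries of their groups were listed at 0.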

How the results depend on the processing

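IL32 and IL18 stayed lower in every alternative run that gave them a value. With 1 library left out, IL32 lay between -2.55 and -2.43, and IL18 between -0.854 and -0.74. After median-of-ratios scaling IL32 was -2.44 and IL18 -0.682, and after quantile normalization -2.42 and -0.711. IL32 was -4.51 with a pseudocount of 0.1 and -4.93 as the log2 ratio of mean TPM, both steps that enlarge differences near 0, and it has no value with a mean of at least 5 TPM, which it does not reach. CXCL8 was 0.703 and 0.829 under these steps, against 0.309, and 0.275 to 0.341 with 1 library left out. IL6 was 0.0971 and 0.737, and CCL20 0.771 as the log2 ratio, all on values close to 0. The sum of the chromosome 4 chemokines was 0.108, or -0.0678 without CXCL8, and lay between 0.00977 and 0.164 when 1 library was dropped.

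Both thresholds were passed by 66 genes, 112 with a pseudocount of 0.1, 40 with a mean of at least 5 TPM, where fewer genes were tested, and 61 to 74 with 1 library left out. At an adjusted p-value under 0.05 it was 662, 1299 with the length and GC trends removed, and 343 to 857 with 1 library left out (345, 376, 421 and 343 on dropping HCT116-WT replicate 1, 2, 4 or 5, and 407 and 375 on dropping HCT116-CD276KO replicate 3 or 4). The replicate number as a block gave 378 and left 1 call, CKLF, among the other cytokines. With all 30818 genes above 0 TPM in the fit, limma called 542 at an adjusted p-value under 0.05. There CXCL16 lost its call and IL7 gained one. CXCL8, which the filter otherwise leaves out, was among the 542, and nothing is read from this. Deviations from the group mean correlated between -0.181 and 0.119 in same-numbered samples. They also carry the trends with length and GC content, so they cannot show whether the numbers pair the samples.

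With the length and GC trends removed, the receptors, the IL-18 list and the NF-kB list each gained 1 call, CD44, CASP4 and BIRC3, and the cause was not tested. With 1 library left out, the calls ranged from 0 to 1 for the IL-18 and NF-kB lists and from 0 to 2 for the other cytokines. The depth of each library is not kept in TPM, which limits what can be said of the 6 cytokines below 1 TPM on average.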
